A study of Mus musculus with 55 samples.

Results

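The major histocompatibility complex (MHC) class II genes H2-Aa, H2-Ab1, H2-Eb1 and H2-DMa, the invariant chain gene Cd74 and the class II transactivator gene Ciita were followed in the mouse optic nerve head (ONH) after optic nerve crush. They are 6 of the 12393 genes that the array annotation names by probe sets with a single gene symbol, and all of their single-gene probe sets were taken, 10 of 22626. There were 3 probe sets for H2-Ab1, 2 each for H2-Aa and Ciita, and 1 each for H2-Eb1, H2-DMa and Cd74.

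Class II molecules are heterodimers of an alpha and a beta chain that hold peptides from the endosomal pathway and show them to CD4 T cells. In the endoplasmic reticulum the newly made chains bind the invariant chain encoded by Cd74, which fills the groove, and in late endosomes H2-DM exchanges its remnant for an antigenic peptide. Transcription of the whole set depends on Ciita, a coactivator that binds no DNA of its own and is recruited by the RFX complex, NF-Y and CREB on the X and Y boxes of the promoters. In the central nervous system class II is known as a product of activated microglia, of macrophages at the borders of the tissue, of dendritic cells and of B cells.

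The left optic nerve of C57Bl/6 female mice, 6 to 8 weeks old at surgery, was compressed 1 mm behind the eye for 10 seconds, and RNA of the ONH, the tissue at the eye end of the nerve, was hybridized to Affymetrix Mouse Genome 430A 2.0 arrays. Crushed samples were taken at 5 times, 1 day and 3 days, then 1 week and 3 weeks, and finally 3 months, each with a contralateral sample from the untouched right eyes of the same animals, and naïve samples came from mice without surgery. Each sample pooled 2 ONHs and each of the 11 groups had 5 samples, which gave 25 crushed, 25 contralateral and 5 naïve samples. The samples at 3 months were a second array batch of 10 and were compared only with each other. C57Bl/6 mice carry an MHC haplotype without a functional E alpha chain, so that H2-Eb1 is transcribed but has no partner. The titles of these samples name no allele or agent. Operated mice received ketamine and xylazine, proparacaine drops and bacitracin ointment, whereas naïve mice had no surgery.

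Array medians ran from 459 to 554 (first batch) and from 494 to 598 (second batch). Of the tissue markers, the summed intensity of 9 astrocyte genes lay between 29874 and 67591 in every sample, whereas that of 9 photoreceptor genes ranged from 486 to 109934, so that some samples held far more photoreceptor transcripts than others of the same group. In such bulk tissue more cells of a type and more RNA per cell cannot be told apart.

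Promoter sequences are shown because Ciita acts through short boxes in them. RefSeq windows of 250 bases before to 50 bases after the start of transcription were used for 3 of the members, namely H2-Aa, H2-Eb1 and H2-DMa. Windows on a single chromosome had been left out beforehand, so other members may have had one. Both strands were searched for AGNAAC (the core of the X box), ATTGG (the Y box) and TGACG (part of the X2 box), and the letters that matched are in capitals. AGNAAC is held by 48.1% of the 32851 windows of all genes, ATTGG by 37.4% and TGACG by 20.8%. The windows of H2-Aa (minus strand, chr17:34287774-34288073, GRCm38.p6) and H2-Eb1 (plus strand, chr17:34305617-34305916) and that of H2-Oa (plus strand, chr17:34092129-34092428), which encodes a chain of the inhibitor H2-O and behaved differently at 1 day, read as follows.
H2-Aa: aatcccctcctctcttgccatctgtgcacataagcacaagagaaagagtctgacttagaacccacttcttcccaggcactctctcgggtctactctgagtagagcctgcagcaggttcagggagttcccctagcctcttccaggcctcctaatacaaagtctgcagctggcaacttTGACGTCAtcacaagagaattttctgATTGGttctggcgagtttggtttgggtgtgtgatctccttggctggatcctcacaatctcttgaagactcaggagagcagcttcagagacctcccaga
H2-Eb1: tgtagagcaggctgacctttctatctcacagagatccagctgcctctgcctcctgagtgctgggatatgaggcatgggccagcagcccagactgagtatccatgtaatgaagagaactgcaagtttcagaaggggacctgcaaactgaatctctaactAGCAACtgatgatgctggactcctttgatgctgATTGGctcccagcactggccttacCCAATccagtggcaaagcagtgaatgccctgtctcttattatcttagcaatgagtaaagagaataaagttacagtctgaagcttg
H2-Oa: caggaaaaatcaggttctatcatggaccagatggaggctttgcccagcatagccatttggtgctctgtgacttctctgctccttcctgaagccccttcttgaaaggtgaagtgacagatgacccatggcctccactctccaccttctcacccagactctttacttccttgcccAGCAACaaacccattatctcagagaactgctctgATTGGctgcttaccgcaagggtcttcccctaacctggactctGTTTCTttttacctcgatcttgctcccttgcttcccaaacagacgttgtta
In H2-Eb1 the X box core is followed by a Y box on the same strand with 27 bases between them, and a further Y box lies on the opposite strand. In H2-Oa the interval is 28 bases. H2-Aa has the Y box and, before it, TGACG on both strands, which overlap in a palindrome, but no AGNAAC in this window. Neither of the 2 windows of H2-DMa holds an X box core followed by a Y box. An AGNAAC followed by ATTGG on the same strand within 40 bases, a rule chosen after these windows were seen, occurs in 1.0% of all windows (329 of 32851), and besides H2-Eb1 and H2-Oa also in those of H2-DMb1, H2-Ob and H2-Eb2. A match describes the letters of the window and is neither a site nor a cause.

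As a group the class II genes had no call at 1 day and were higher in crushed than in contralateral ONHs at 3 days. By their median they stood furthest above them at 1 week, and they were still higher at 3 weeks. Cd74 and H2-Aa 1435290_x_at had larger fitted values at 3 weeks than at 1 week. To be called, a probe set had to differ by at least 2-fold with an adjusted p under 0.05 in limma (Benjamini-Hochberg, over all probe sets tested), and 9 of the 10 member probe sets were bright enough to be tested. The remaining one, the dimmer Ciita probe set 1421210_at, reached an intensity of 50 on 7 of 55 arrays. At 1 day limma called 0 of 9 higher, where 7.02% of all probe sets tested were called higher, and 1 of 9 had an unadjusted p under 0.05, against 58.6% of all probe sets in either direction. At 3 days 6 of 9 were called higher, from 4 genes, against 6.6% of all probe sets. That count was 2 under quantile normalization, 2 with arrays shifted to a common median, 2 without pair 3 and 3 without pair 4. H2-Aa 1452431_s_at, H2-Ab1 1450648_s_at and H2-Eb1 fell under 2-fold without either of these pairs. Ciita did so without pair 3, and also when intensities below 50 were raised to 50. At 1 week it was 8 of 9, from 5 genes, against 6.21%, and at 3 weeks 6 of 9, from 3 genes, against 2.36%. At 3 months limma called 0 of 9, where 0.207% of all probe sets were called higher. At that time 8 of 9 had an unadjusted p under 0.05, against 14.1% of all probe sets in either direction. No member probe set was called lower at any time, whereas 7.44% of all probe sets were at 1 day, 2.2% at 3 days, 3.53% at 1 week, 1.75% at 3 weeks and 0.255% at 3 months. By the methods' t-test with its criteria on fold and difference, 0, 0, 5, 2 and 0 of the 10 member probe sets were called higher over the 5 times in order, against 4.11%, 3.89%, 3.01%, 0.839% and 0.393% of all probe sets. The median log2 fold change of the 9 was 0.20 at 1 day and 1.06 at 3 days, reached 1.53 at 1 week, and was 1.26 at 3 weeks and 0.87 at 3 months, and the median over all probe sets lay between -0.03 and 0.04 at these times.

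The groups separated fully at 1 week, when all 5 crushed samples were above all 5 contralateral samples for all 9 member probe sets, as was so for 12.6% of all probe sets tested. At 3 weeks this held for 8 of the 9, all but Ciita, against 8.2% of all probe sets. At 3 months it held for 5, those of H2-Aa and H2-Ab1, against 3.51%. At 3 days it held for only 2, both of H2-Ab1, against 20.5%, and at 1 day for 0 against 22.7%. The plot of intensity by sample shows the brightest probe set of each gene.

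**Figure D1:**
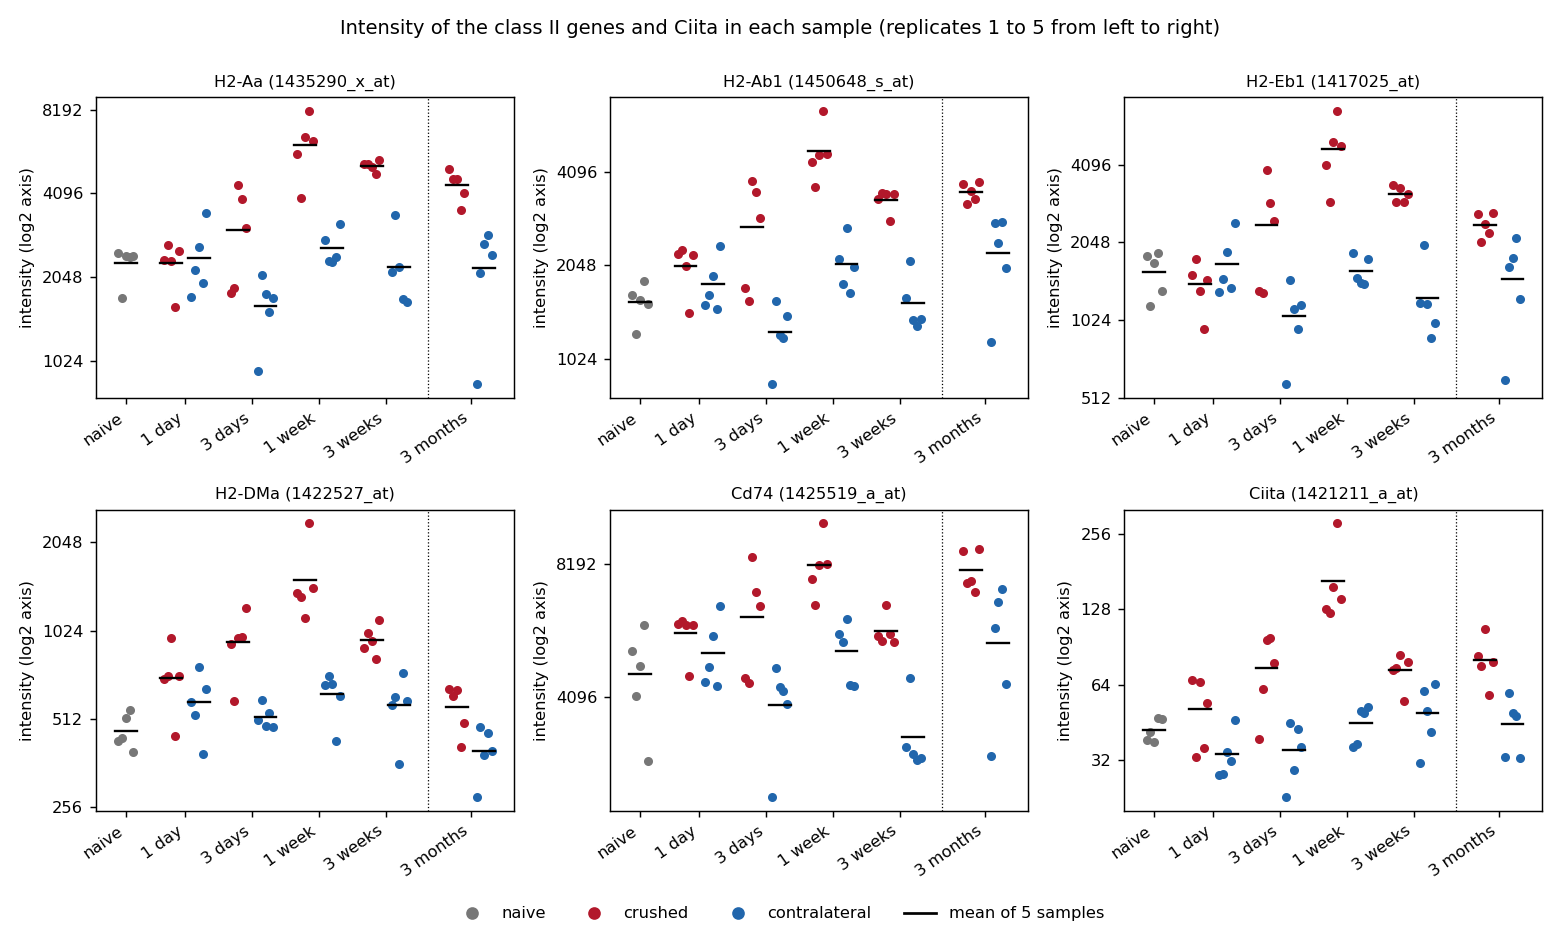
Intensity of the 6 genes in each sample (log2 axis, brightest probe set of each gene), with naïve samples on the left, then crushed and contralateral samples at each time and the second batch beyond the dotted line; bars are means of 5 samples. At 1 week the 5 crushed samples lie above the 5 contralateral samples in every panel, and the crushed samples at 3 days are split into a low and a high set in H2-Aa, H2-Ab1, H2-Eb1 and Cd74.

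H2-Aa encodes the alpha chain of the A molecule, the class II molecule that these mice can assemble. With the mean of the 25 naïve and contralateral samples of the first batch as baseline, its brightest probe set, 1435290_x_at, stood in crushed ONHs at 103 ± 18.7 percent at 1 day, 135 ± 52.9 percent at 3 days, 274 ± 67.7 percent at 1 week, then 231 ± 10.2 percent at 3 weeks (SD, n = 5 each). The contralateral samples stood at 107 ± 30.9, 72.5 ± 19.0, 117 ± 16.5 and 99.99 ± 31.7 percent at these times, and the naïve samples at 103 ± 14.8 percent. The level was thus highest at 1 week, where the range of crushed samples overlapped that at 3 weeks. Crushed samples at 3 weeks were all above those at 3 days, and crushed samples at 3 days overlapped those at 1 day and the contralateral and naïve samples.
At 3 days the intensities were 1794, 1864, 4403, 3917 and 3078 in crushed samples 1 to 5, against 943, 2081, 1785, 1534 and 1727 in contralateral samples 1 to 5. Crushed samples 1 and 2 lay among the contralateral samples and the other three above all of them. limma put the log2 fold change at 0.85 (SE 0.19, limma adjusted p = 0.00107), under the 2-fold limit of a call.
At 1 week the intensities were 5679, 3937, 6533, 8103 and 6301 in crushed samples, against 2772, 2333, 2313, 2420.0 and 3167 in contralateral samples. Crushed sample 4 was the highest and crushed sample 2 the lowest, still above every contralateral sample. On the log2 scale the difference was 1.20 (SE 0.19, limma adjusted p = 3.17e-05).
At 3 weeks the crushed samples had 5228, 5237, 5070.2, 4791 and 5390.0, against 2126, 3408, 2221, 1706 and 1669.5 in contralateral samples. The crushed samples lay close together, and only contralateral sample 2 stood apart, towards them. This gave a log2 fold change of 1.26 (SE 0.19, limma adjusted p = 7.39e-05). The second probe set, 1452431_s_at, was called higher at all of these times, by 1.08 (SE 0.24) after 3 days, by 1.82 (SE 0.24) after 1 week and by 1.53 (SE 0.24) after 3 weeks on the log2 scale. At 1 day both probe sets had log2 fold changes near 0, -0.03 (SE 0.19) and 0.01 (SE 0.24), and crushed samples were the higher of their pair in 2 of 5 pairs. This sign was not stable, since it turned when single pairs were left out and, for 1452431_s_at, under quantile normalization.

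H2-Ab1 encodes the beta chain that pairs with H2-Aa. Its brightest probe set, 1450648_s_at, stood in crushed ONHs at 124 ± 21.2 percent of baseline at 1 day, 166 ± 62.5 at 3 days, 290.3 ± 62.2 at 1 week, then 203 ± 17.0 at 3 weeks. Contralateral samples stood at 108 ± 22.1, 76.1 ± 16.5, 126 ± 24.4 and 94.6 ± 20.4 percent, and naïve samples at 95.2 ± 13.1 percent. The crushed samples at 1 week were all above those at 3 weeks, and those at 3 weeks overlapped those at 3 days.
At 3 days the intensities were 1736, 1577, 3833, 3533 and 2913 in crushed samples, against 847, 1574, 1219.6, 1198 and 1405 in contralateral samples. The groups did not overlap, but crushed sample 2 exceeded contralateral sample 2 by less than 3 units. In the fit the log2 change was 1.06 (SE 0.18, limma adjusted p = 8.84e-05).
Crushed samples at 1 week had 4401, 3659.7, 4654, 6437 and 4679, against 2150.2, 1788, 2698, 1672 and 2016 in contralateral samples, and sample 4 was again the highest. Fitted, the log2 fold change was 1.20 (SE 0.18, limma adjusted p = 2.18e-05), and at 3 weeks 1.12 (SE 0.18, limma adjusted p = 0.000162). The 2 dimmer probe sets gave larger values. Probe set 1451721_a_at had 1.41 (SE 0.25) after 3 days, then 1.76 (SE 0.25) after 1 week and 1.44 (SE 0.25) after 3 weeks, and 1425477_x_at had 1.35 (SE 0.25), 1.72 (SE 0.25) and 1.39 (SE 0.25). All 3 were called higher at each of these times. Array names ending in _x_at or _s_at mark probe sets whose probes can also match related sequences, so that close relatives within the family may add to these signals, and whether a dim probe set or a bright one is nearer to the true fold was not tested.

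H2-Eb1 encodes the beta chain of the E molecule. Its probe set stood in crushed ONHs at 98.2 ± 21.1 percent of baseline at 1 day, 167 ± 77.6 at 3 days, 329 ± 94.6 at 1 week, then 221 ± 15.4 at 3 weeks. Contralateral samples stood at 118 ± 33.1, 73.9 ± 22.8, 111 ± 14.8 and 87.2 ± 30.8 percent, and naïve samples at 109.7 ± 21.9 percent. Crushed samples were highest at 1 week, and their ranges overlapped between 1 week and 3 weeks and between 3 weeks and 3 days.
At 3 days the crushed samples had 1325, 1304, 3925, 2904 and 2480.1, against 576, 1466, 1132, 949 and 1169 in contralateral samples. As for H2-Aa, crushed samples 1 and 2 lay among the contralateral samples, and contralateral sample 1 was lower than all others. limma put the log2 fold change at 1.11 (SE 0.23, limma adjusted p = 0.000686).
At 1 week the crushed samples had 4107, 2940.1, 5045, 6639 and 4839, against 1871, 1485, 1420.1, 1411 and 1763 in contralateral samples. Every crushed sample exceeded every contralateral one. On the log2 scale the difference was 1.53 (SE 0.23, limma adjusted p = 2.35e-05), and at 3 weeks 1.40 (SE 0.23, limma adjusted p = 0.000207). At 1 day it was -0.26 (SE 0.23, limma adjusted p = 0.364), with crushed samples lower than their contralateral partner in 3 of 5 pairs. H2-Ea, the gene of the alpha partner that is not functional in this strain, reached an intensity of 50 on 0 of 55 arrays, with values from 6.69 to 39.0.

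H2-DMa encodes the alpha chain of H2-DM, the catalyst of peptide exchange. Crushed samples stood at 128 ± 32.9 percent of baseline at 1 day, 169 ± 41.1 at 3 days, 276 ± 87.8 at 1 week, then 173 ± 20.4 at 3 weeks. Contralateral samples stood at 105 ± 25.4, 94.2 ± 8.54, 112 ± 20.3 and 104 ± 24.6 percent, and naïve samples at 84.3 ± 11.6 percent. The crushed samples at 1 week were all above those at 3 weeks, and the ranges of crushed samples at 3 weeks and 3 days overlapped.
Crushed samples at 1 week had 1370.4, 1336, 1127, 2370.2 and 1433, against 667, 718, 676, 432 and 614 in contralateral samples. Crushed sample 4 stood well above the other four. This gave a log2 fold change of 1.27 (SE 0.20, limma adjusted p = 4.05e-05) and was called. That call depended on sample 4, without whose pair the value was 0.97, under 2-fold. At 3 days it was 0.81 (SE 0.20, limma adjusted p = 0.00303) and at 3 weeks 0.77 (SE 0.20, limma adjusted p = 0.00917), both under 2-fold.

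Cd74 encodes the invariant chain. Crushed samples stood at 129 ± 14.7 percent of baseline at 1 day, 140.1 ± 39.4 at 3 days, 183 ± 29.0 at 1 week, then 130.1 ± 10.9 at 3 weeks. Contralateral samples stood at 116 ± 21.4, 88.5 ± 20.1, 117 ± 18.4 and 74.8 ± 15.1 percent, and naïve samples at 104 ± 25.98 percent. Crushed samples were highest at 1 week, where their range overlapped that of 3 days and, through sample 3, that of 3 weeks.
At 1 week the crushed samples had 7567, 6626, 8181, 10147 and 8228, against 5675, 5451, 6168, 4354 and 4344 in contralateral samples. The groups did not overlap, although crushed sample 2 and contralateral sample 3 lay close. In the fit the log2 change was 0.65 (SE 0.15, limma adjusted p = 0.0012).
At 3 weeks the crushed samples had 5639, 5486, 6633, 5676 and 5463, against 3145, 4513, 3033, 2949 and 2971 in contralateral samples. Here contralateral sample 2 lay well above the other four and still below every crushed sample. Fitted, the log2 fold change was 0.82 (SE 0.15, limma adjusted p = 0.000407), and at 3 days it was 0.65 (SE 0.15, limma adjusted p = 0.00121). With folds of 1.57 at 3 days, 1.57 at 1 week, then 1.76 at 3 weeks, Cd74 was the only member that was called at no time. Whether its change differed from that of the chains was not tested.

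Ciita encodes the transactivator. Its tested probe set, 1421211_a_at, was dim and reached an intensity of 50 on 28 of 55 arrays. Crushed samples stood at 124 ± 39.1 percent of baseline at 1 day, 181 ± 60.7 at 3 days, 404 ± 159 at 1 week, then 178 ± 26.7 at 3 weeks. Contralateral samples stood at 82.0 ± 18.6, 85.4 ± 22.6, 109 ± 18.7 and 120.3 ± 33.0 percent, and naïve samples at 103 ± 10.6 percent. The crushed samples at 1 week were above all others in the first batch.
At 1 day the crushed samples had 67.0, 32.9, 65.4, 35.6 and 54.1, against 27.9, 28.1, 34.6, 31.8 and 46.4 in contralateral samples. Each crushed sample exceeded its partner, but the groups overlapped. limma put the log2 fold change at 0.56 (SE 0.21, limma adjusted p = 0.0303), under 2-fold, and with the naïve samples in place of the contralateral ones it was 0.21 with an adjusted p of 0.485 in limma.
At 3 days the crushed samples had 38.8, 61.5, 96.1, 98.3 and 78.3, against 22.8, 45.2, 29.1, 42.6 and 36.0 in contralateral samples. Crushed sample 1 lay within the range of the contralateral samples. On the log2 scale the difference was 1.05 (SE 0.21, limma adjusted p = 0.000468). Every contralateral value lay under 50, so this fold rests on dim values. With intensities below 50 raised to 50 the difference was 0.57 and not called. That floor gave 0.18 at 1 day, 1.65 at 1 week, still called, and 0.41 at 3 weeks.
Crushed samples at 1 week had 129, 124, 157, 281 and 139.8, against 36.2, 37.0, 50.2, 49.3 and 52.0 in contralateral samples. The lowest crushed sample was more than 2 times the highest contralateral one, and sample 4 was again the highest. This gave a log2 fold change of 1.83 (SE 0.21, limma adjusted p = 9.71e-07).
At 3 weeks the crushed samples had 73.3, 74.3, 84.2, 55.2 and 78.9, against 31.2, 60.3, 50.1, 41.5 and 64.3 in contralateral samples. Crushed sample 4 fell within the contralateral range. In the fit the log2 change was 0.60 (SE 0.21, limma adjusted p = 0.047). The dimmer probe set, 1421210_at, had group means of 22.2 to 44.3 in crushed samples, against 22.5 to 32.7 in contralateral samples of the first batch, all below 50, and was not tested.

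The test of the difference between times bore on the rise after 1 day. The crush effect at 3 days was called higher than that at 1 day in 2 of 9 probe sets, by 1.36 (SE 0.33) on the log2 scale for H2-Eb1 (limma adjusted p = 0.00734) and by 1.07 (SE 0.34) for H2-Aa 1452431_s_at (adjusted p = 0.0389), where 3.9% of all probe sets were called higher. The count was 0 without pair 3 or pair 4 and 6 without pair 2. All 9 differences were positive, the lowest 0.49. Of these, 7 had an unadjusted p under 0.05 in limma, against 28.2% of all probe sets in either direction. The effect at 1 week was called higher than that at 1 day in 7 of 9, all but H2-DMa and Cd74, by 1.00 to 1.81, against 6.67% of all probe sets. Here too all 9 differences were positive, the lowest 0.49. All 9 had an unadjusted p under 0.05 in limma, against 42% of all probe sets in either direction. At 3 weeks the effect was called higher than that at 1 day in 5 of 9, of H2-Aa, H2-Eb1 and the dimmer 2 of H2-Ab1, by 1.03 to 1.66, against 6.8%, and in 3 of 9 without pair 3, 4 or 5. The lowest of the 9 differences was 0.04, and 7 had an unadjusted p under 0.05 in limma, against 45.3% of all probe sets. Between 3 days and 1 week limma called 0 of 9, with 2 at an unadjusted p under 0.05 (25.2% of all probe sets), and 3.12% of all probe sets were called in either direction. Between 3 days and 3 weeks it called 0 of 9, with 0 at an unadjusted p under 0.05 (33.1% of all probe sets), and 6.34% of all were called.
Between 1 week and 3 weeks the fitted effect was smaller at 3 weeks in 7 of the 9 probe sets, and 1 of the 9 was called. For Ciita the log2 difference of 3 weeks minus 1 week was -1.23 (SE 0.30, limma adjusted p = 0.00907), where 3.1% of all probe sets were called lower. The other 8 had differences between -0.50, that of H2-DMa, and 0.17, that of Cd74, with none called. The call depended on sample 4 at these times, without which the difference was -1.02 with an adjusted p of 0.0539. A test of Ciita against the other members was not made.

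**Figure D2:**
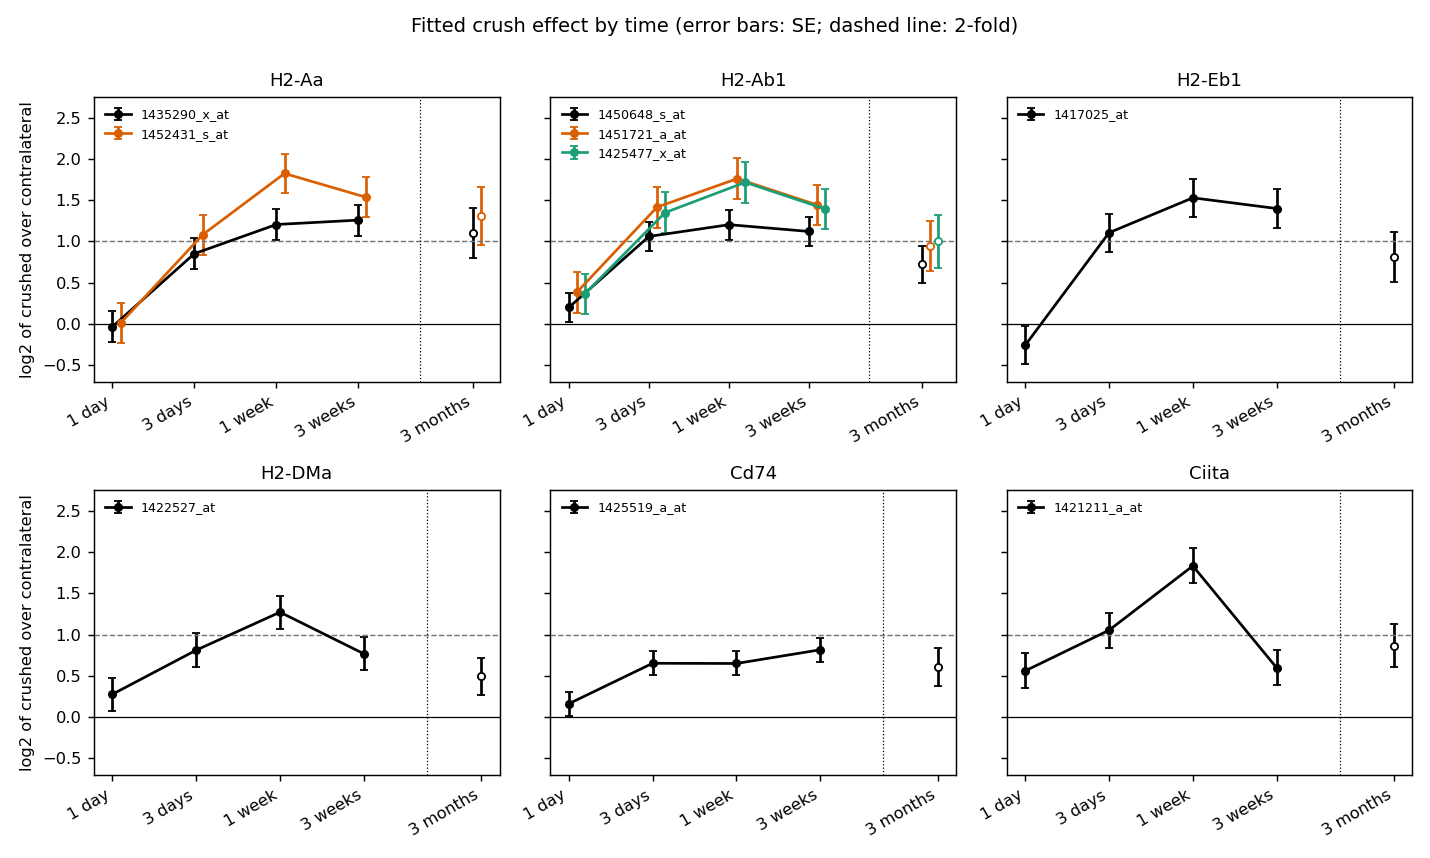
Log2 ratio of crushed over contralateral intensity for the 9 tested probe sets (points are fitted values, bars SE of the model with n = 5 pairs at each time), with the 3-month model of the second batch beyond the dotted line and 2-fold as a dashed line. The Ciita value was 1.83 at 1 week and 0.60 at 3 weeks, while both H2-Aa probe sets were still above 1 at 3 weeks.

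The rise at 3 days was uneven among samples. In the chain genes and Cd74, crushed samples 3, 4 and 5 were high and samples 1 and 2 were near the contralateral level. Against its own low partner, crushed sample 1 was nevertheless higher. Pair 1 had log2 ratios of 0.93 for H2-Aa, 1.04 for H2-Ab1, 1.20 for H2-Eb1 and 0.90 for Cd74 (brightest probe sets). Pair 2 had -0.16, 0.003, -0.17 and -0.11. Crushed sample 2 had the largest summed photoreceptor intensity of its group (70312, against 1366 to 24095 in the other four) and the smallest summed intensity of the 17 microglia and macrophage markers (62546, against 73094 to 80365). Crushed sample 1 stood at 4633 and 74890 on these sums and did not stand apart in either. The part of these differences in the result was not tested. Contralateral sample 1 at 3 days was the lowest for all 3 chain genes, Cd74 and Ciita, and its summed photoreceptor intensity of 1014 was the lowest of its group.
Against naïve samples in place of the contralateral ones, limma called 0 of 9 at 3 days, where 6.92% of all probe sets were called higher, with log2 fold changes of 0.31 and 0.49 for H2-Aa, 0.72 to 0.96 for H2-Ab1, 0.49 for H2-Eb1, 0.98 for H2-DMa, 0.43 for Cd74 and 0.74 for Ciita. At 1 week the same comparison called 8 of 9, against 6.92% of all probe sets, and at 3 weeks 7 of 9, against 3.7%. The count at 3 days thus depended on which uncrushed samples were used.

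The contralateral samples were set against the naïve ones to see whether the untouched eye responded. Limma called 0 of 9 member probe sets at any of the 4 times, where 0% of all probe sets were called in either direction at 1 day and at 3 days, 0.112% at 1 week, then 0.691% at 3 weeks. At an unadjusted p under 0.05 there were 0 of 9 at 1 day, 4 at 3 days, 2 at 1 week, then 1 at 3 weeks, against 6.79%, 5.55%, 14.4% and 27.7% of all probe sets. The median log2 difference of the 9 was 0.09 at 1 day, -0.46 at 3 days, 0.20 at 1 week, then -0.08 at 3 weeks. At 3 days the lowest was -0.61, and adjusted p were 0.749 or more.

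At 3 months the class II genes did not pass the test, although their values were still above contralateral ones. For H2-Aa (1435290_x_at) the crushed samples had 5015, 4605, 4598, 3576 and 4092, against 842, 2124, 2689, 2902 and 2452 in contralateral samples. The groups did not overlap, and contralateral sample 1 was far below the other four. Fitted, the log2 fold change was 1.10 (SE 0.31, limma adjusted p = 0.191).
For H2-Eb1 the crushed samples had 2634, 2059, 2423, 2219 and 2655, against 598, 1647, 1782, 2140.1 and 1241 in contralateral samples. Contralateral sample 4 reached into the crushed range. limma put the log2 fold change at 0.81 (SE 0.30, limma adjusted p = 0.307). For Ciita the crushed samples had 83.2, 76.2, 106, 57.9 and 78.6, against 33.0, 59.4, 49.5, 48.0 and 32.7 in contralateral samples, and only crushed sample 4 fell within the contralateral range. On the log2 scale the difference was 0.87 (SE 0.26, limma adjusted p = 0.222). The remaining probe sets had log2 fold changes of 1.31 for H2-Aa 1452431_s_at, 0.72 to 1.00 for H2-Ab1, 0.49 for H2-DMa and 0.61 for Cd74, with adjusted p between 0.179 and 0.371.
Contralateral sample 1 was the lowest of its group in all 3 chain genes, H2-DMa and Cd74. It had a summed photoreceptor intensity of 109934, against 1198 to 44912 in the other four contralateral samples, and the smallest sums of microglia and macrophage markers (26683, against 35674 to 45798) and of monocyte and border macrophage markers (15953, against 30727 to 41514). Without its pair limma again called 0 of 9, and the log2 fold changes were 0.73 and 0.90 for H2-Aa, 0.48 to 0.65 for H2-Ab1, 0.48 for H2-Eb1, 0.31 for H2-DMa, 0.37 for Cd74 and 0.75 for Ciita. All 9 were positive and smaller, by over 1.5 times except for H2-Aa 1452431_s_at and Ciita.

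Among other genes of the class II pathway, of 13 listed symbols, older names included, 7 were on the array by single-gene probe sets and 6 were tested. Ifi30, the lysosomal thiol reductase that opens disulphide bonds of antigens, was called higher at 3 days, with a log2 fold change of 1.42 (SE 0.14, limma adjusted p = 1.4e-07), and at 1 week with 1.09 (SE 0.14). Lgmn, an endosomal asparaginyl protease, was called higher at 1 week with 1.02 (SE 0.10). Ctss, the protease that trims the invariant chain, had values between -0.17 and 0.28 up to 3 weeks and was not called, nor were Ctsl, another cathepsin, and H2-DMb2, a beta chain of H2-DM. The list median was 0.04 at 1 day, 0.30 at 3 days, 0.74 at 1 week, 0.20 at 3 weeks and 0.06 at 3 months.
H2-Oa, a chain of H2-O, was the member of this list called lower. H2-O restrains H2-DM in B cells and some dendritic cells. At 1 day its intensities were 75.3, 84.5, 111, 56.8 and 109 in crushed samples, against 199, 193, 267, 147 and 187 in contralateral samples. All crushed samples were below all contralateral ones. This gave a log2 fold change of -1.20 (SE 0.25, limma adjusted p = 0.00032), the 1 of 6 called lower, where 7.44% of all probe sets were. Ctss (-0.17, adjusted p = 0.0223) and Ctsl (-0.16, adjusted p = 0.0126) were also below 0 at 1 day, by less than 2-fold. At 1 week it was 0.74 (SE 0.25, adjusted p = 0.0204), under 2-fold.

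The factors on which Ciita acts showed no call. Of 11 listed genes, which include Rfx5, Rfxank and Rfxap of the RFX complex, Nfya, Nfyb and Nfyc of NF-Y, and Creb1, limma called 0 at any time, with 8, 6, 7, 3 and 0 at an unadjusted p under 0.05 over the 5 times in order, beside 58.6%, 48.1%, 49.3%, 33.9% and 14.1% of all probe sets. Rfx5 had -0.61 (SE 0.06) at 1 day, Rfxank 0.85 (SE 0.13) and Creb1 0.80 (SE 0.12), all under 2-fold. The list median lay between -0.13 and 0.00.
Interferon gamma is the classical inducer of Ciita. Ifng itself had group means of 5.85 to 16.3 and no sample reached 50, so that it was not tested, and Il10, also dim, was not tested at any time. Of 12 genes of this list tested to 3 weeks, 3 were called higher at 1 day, 3 at 3 days, 5 at 1 week, then 2 at 3 weeks, and none lower. Beside these counts, 7.02%, 6.6%, 6.21% and 2.36% of all probe sets were called higher and 7.44%, 2.2%, 3.53% and 1.75% lower. Spi1, the myeloid transcription factor PU.1, was called higher at all 4 times, with log2 fold changes of 1.56 (SE 0.21) at 1 day, 1.80 at 3 days, 1.72 at 1 week, then 1.24 at 3 weeks. So was Tgfb1, a cytokine known to restrain Ciita, with 1.89 (SE 0.23), 1.90, 1.15 and 1.28. Socs3, an inhibitor of cytokine signalling, had 2.16 (SE 0.20) at 1 day and 1.24 at 3 days. Irf8, with 1.37 (SE 0.22), Ifngr2, a chain of the interferon gamma receptor, with 1.41 (SE 0.19), and Usf1, with 1.14 (SE 0.16), were called at 1 week only. Irf1, an interferon target that acts on the Ciita promoter, had 0.23 to 0.36 from 1 day to 3 weeks and was not called. The list median was 0.25 at 1 day, 0.67 at 3 days, 0.49 at 1 week, 0.36 at 3 weeks and 0.13 at 3 months.

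Costimulatory genes and class I genes were examined beside class II. Of all probe sets tested, 7.02% were called higher and 7.44% lower at 1 day. The share called higher was 6.6% at 3 days, 6.21% at 1 week and 2.36% at 3 weeks. Of 9 costimulatory genes tested, Tnfsf9, the ligand of 4-1BB, was called higher at 1 day (2.84, SE 0.23) and 3 days (1.22, SE 0.23), and Cd86, a ligand of CD28, at 1 day (1.40, SE 0.28) and 1 week (1.15, SE 0.28). Cd83 had -1.42 (SE 0.13) and Icosl -1.03 (SE 0.21) at 1 day and were called lower. The list median was 0.48, 0.12, 0.33, 0.33 and 0.24 from 1 day to 3 months. Of 14 class I genes tested, only H2-M3, a nonclassical class I gene, was called, higher at 1 week (1.13, SE 0.20) and 3 weeks (1.03, SE 0.20). H2-K1 had log2 fold changes of -0.02 to 0.28 up to 3 weeks, and H2-D1 of -0.14 to 0.08. At 1 week the list median was 0.18, beside 1.53 for the 9 class II probe sets and 0.02 for all probe sets tested, and at the other times it lay between 0.04 and 0.20. The list median took only the brightest probe set of each gene. The class II median counted every tested probe set, so H2-Ab1 and H2-Aa entered it more than once.

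**Figure D3:**
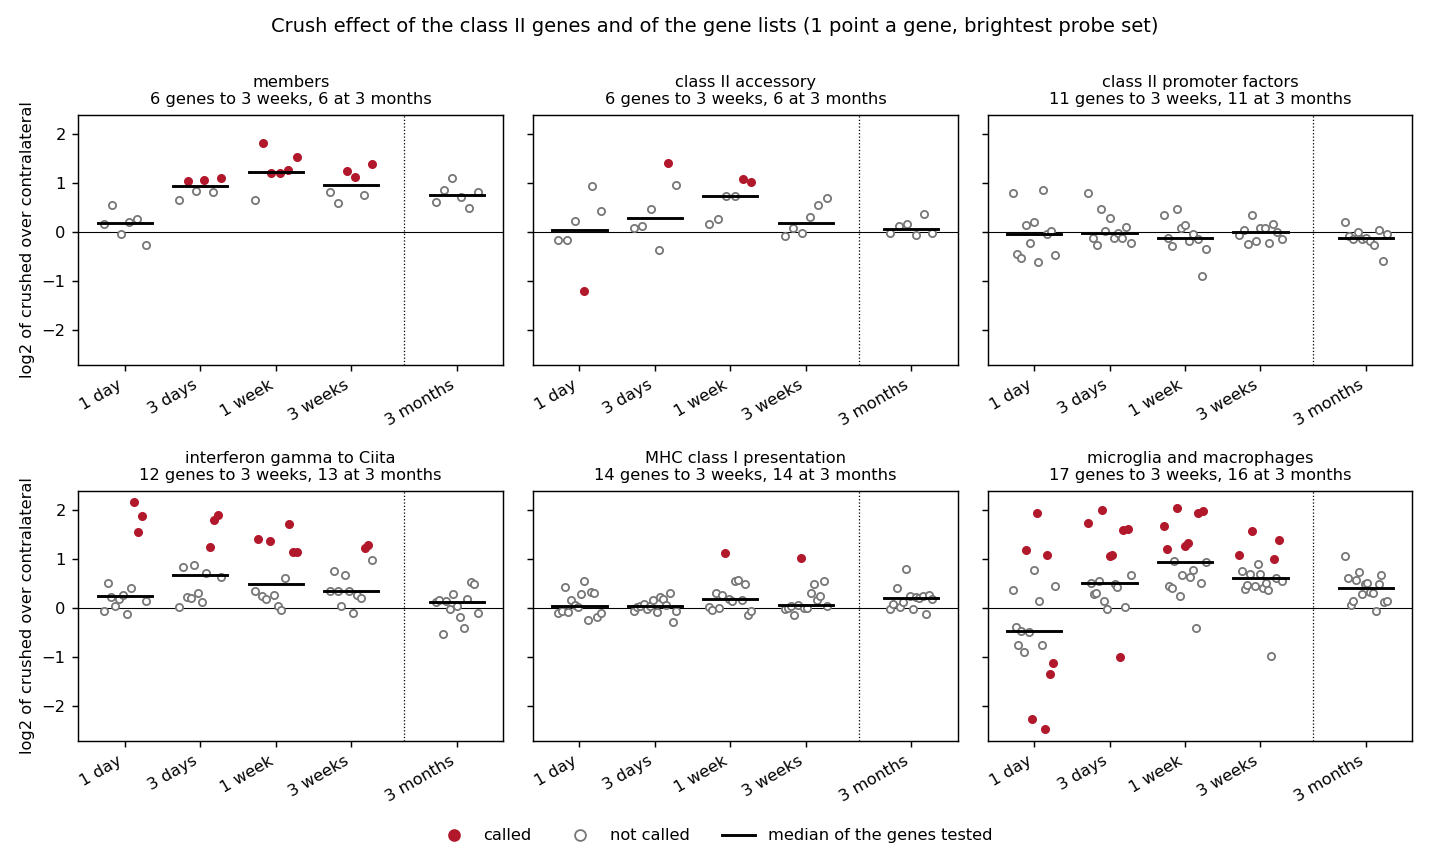
Log2 ratio of crushed over contralateral intensity for each gene of the class II group and of 5 gene lists (1 point a gene, by its brightest probe set, filled where called, bars the median of these genes), by time, with the 3-month model beyond the dotted line. H2-M3 is the only class I gene called (filled at 1 week and 3 weeks), the promoter factors hold no called gene, and the microglia and macrophage markers are spread to both sides at 1 day.

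Markers of cells that carry class II moved in the same period, and their part in the class II result was not tested. Of the 17 microglia and macrophage markers, 3 were called higher and 4 lower at 1 day, 6 and 1 at 3 days, 7 and 0 at 1 week and 4 and 0 at 3 weeks, with medians of -0.47, 0.51, 0.95 and 0.61. Of all probe sets tested, 7.02%, 6.6%, 6.21% and 2.36% were called higher at these times and 7.44%, 2.2%, 3.53% and 1.75% lower. At 3 months the shares were 0.207% and 0.255%. All counts of cell markers that follow stand beside these shares. Their summed intensity at 1 week was 67817 to 104525 in crushed samples, against 42880 to 54687 in contralateral samples. P2ry12, a receptor of resting microglia, had -2.47 (SE 0.15) at 1 day, and Cx3cr1 -2.27 (SE 0.24), whereas Cd68, a lysosomal protein of phagocytes, had 1.19 (SE 0.16) at 1 day, 2.01 at 3 days and 2.04 at 1 week. At 1 day, when the class II genes were not called, monocyte genes were already higher, with 3.72 (SE 0.20) for Ccr2 and 6.58 (SE 0.49) for Chil3. Of the 10 monocyte and border macrophage markers 4 were called higher at 1 day, 4 at 3 days, 5 at 1 week, then 3 at 3 weeks, with 1, 0, 1 and 1 lower.
Of 9 dendritic cell markers tested, 2, 3, 3 and 3 were called higher at these times and 1, 1, 0 and 1 lower. Cd209a, a lectin of monocyte-derived cells, had 2.77 (SE 0.38) at 1 week and Itgax 2.44 (SE 0.38), whereas Flt3 was lower at 1 day, with -2.88 (SE 0.32), and Batf3 was not called. Xcr1 did not reach 50 on any array. Of 6 B cell markers 0, 2, 3 and 2 were called higher and 1, 0, 0 and 0 lower. Cd22 had 2.24 (SE 0.31) at 1 week and Ighm, the mu heavy chain, -1.06 (SE 0.15) at 1 day, but Pax5 did not reach 50 on any array and Ms4a1 had 0.02 (SE 0.31) at 1 week. Of 8 T cell markers 0, 1, 4 and 2 were called higher, with Cd28 at 4.93 (SE 0.37) and Cd3d at 1.79 (SE 0.31) at 1 week. Not called at 1 week were Cd4 with 0.66 (SE 0.28), Cd8a with 0.36 (SE 0.18), Cd2 with 0.27 (SE 0.24) and Cd5 with 0.87 (SE 0.29). Cd4 was dim and reached 50 on only 6 arrays. At 3 months, Cd2, a T cell adhesion molecule, was the 1 of 7 called, with 1.69 (SE 0.24), and no marker of the myeloid or B cell lists was. Of 9 astrocyte markers 3 were called lower at 1 day and 0 at later times, of 6 oligodendrocyte markers 3 were lower at 1 day, 0 at 3 days, 4 at 1 week, 3 at 3 weeks and 2 at 3 months, and of 9 photoreceptor markers none was called.

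Without crush the 3 chain genes and Cd74 varied together. Over the 25 naïve and contralateral samples of the first batch, taken as deviations of log2 intensity from the mean of their group, Pearson's r between H2-Aa and H2-Eb1 was 0.95 (Spearman's rho 0.90, permutation p = 1e-05, the smallest that 100000 resamples can give, adjusted p over the 15 pairs of members 3e-05). Without the 2 samples farthest from the median it was 0.92. H2-Ab1 had r = 0.86 with H2-Eb1 and 0.82 with H2-Aa, and Cd74 had 0.80, 0.79 and 0.65 with H2-Eb1, H2-Ab1 and H2-Aa. These 6 relations had adjusted p of 0.00112 or less.
H2-DMa stood further from the chains, with r = 0.15 to H2-Aa, 0.25 to H2-Eb1, 0.40 to H2-Ab1 and 0.45 to Cd74. Its adjusted permutation p was 0.0336 with Cd74, and 0.0666 or more with the chains. With Cd74 its rho was 0.53 (adjusted permutation p = 0.0155), and without the 2 farthest samples its r was 0.46. Ciita had r between 0.38 and 0.52 with the chains and Cd74, and 0.04 with H2-DMa. Its r had adjusted p of 0.0166 with H2-Aa, 0.017 with H2-Ab1 and 0.024 with H2-Eb1, and of 0.0738 with Cd74. Its rho lay between 0.14 and 0.43, none with an adjusted p under 0.05, and without the 2 farthest samples its r was 0.34 with H2-Aa, 0.35 with H2-Ab1, 0.28 with H2-Eb1, 0.34 with Cd74 and 0.06 with H2-DMa. The samples of 1 array batch share their normalization.

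**Figure D4:**
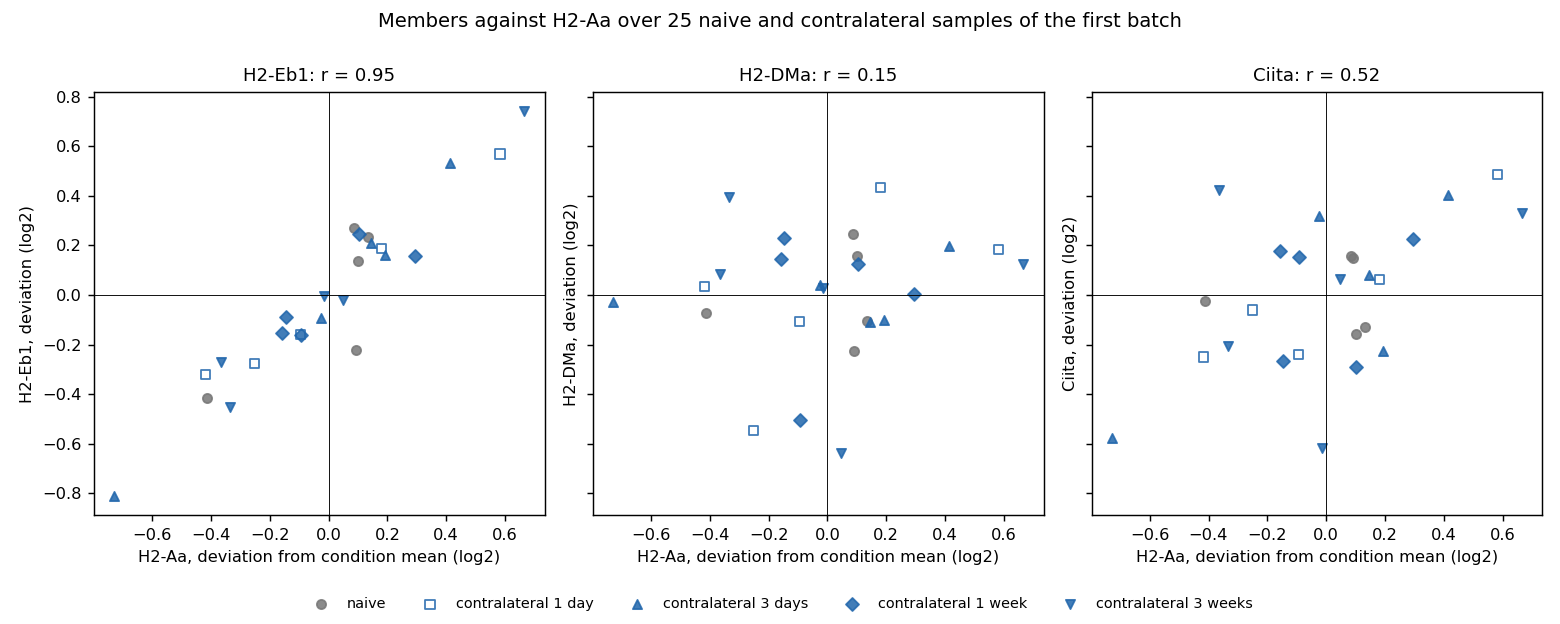
Deviation of log2 intensity from the group mean for H2-Eb1, H2-DMa and Ciita against that of H2-Aa in the 25 naïve and contralateral samples of the first batch (1 point a sample). H2-Eb1 follows H2-Aa closely (r = 0.95), H2-DMa does not (r = 0.15), and contralateral sample 1 of 3 days is the lowest point in the first panel.

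Over all 45 arrays of the first batch, crushed ones included, the log2 intensity of each member had an r of 0.83 to 0.98 with the mean of the other members, a description that the shared crush effect carries in part. By the same measure, with the mean of the standardized members, the 8 genes most alike among 10795 were Trav9d-3, a T cell receptor alpha segment (r = 0.89), Slamf7, a leukocyte receptor (0.89), Scpep1, a serine carboxypeptidase (0.89), Moxd1, a monooxygenase-like protein (0.89), Anpep, the aminopeptidase CD13 (0.88), Igf1, insulin-like growth factor 1 (0.88), Lpl, lipoprotein lipase (0.88), and Nox4, an NADPH oxidase (0.87). Within groups their r was 0.44 to 0.68. The 8 were picked for this likeness on the same arrays, so their r within groups and their changes after crush are not separate findings. At 1 week they had log2 fold changes between 0.83 for Scpep1 and 3.51 for Slamf7, and Slamf7 was the one that was already called higher at 1 day, with 2.16 (SE 0.35).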

How the data were processed

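Samples were grouped by the labels into naïve, contralateral and crushed at each time, with 5 per group. The authors scanned the arrays and deposited linear intensity values, normalized to an invariant set and summarized per probe set in DChip from perfect match and mismatch probes. Intensities below 20 were raised to 20 (9.9% of values) and log2 was taken. Control probe sets (64) were left out, and a probe set was tested where at least 5 arrays of the model reached 50, which left 19313 for the 4 first times, 18823 at 3 months and 18669 for contralateral against naïve. Of the probe sets, 20380 carried 1 symbol, 691 several and 1555 none. limma 3.58.1 in R 4.3.3 fitted the crush effect with eBayes and an intensity trend; p-values were adjusted by Benjamini-Hochberg over all probe sets tested. The pair was a block in the crush models, because left and right eyes came from the same 2 mice and the methods used paired tests. Deviations of samples with the same number correlated at a median r of -0.05 (-0.45 to 0.55, over 0.1 in 8 of 25 pairs). The number of arrays limits the precision, and p-values measure the spread between these pooled samples. The crush model of the 4 first times was tested on simulated data, with changes placed at 1 week in brighter probe sets. The other models, the methods' criteria and the permutations were not tested in this way. Alternatives were no block, other floors, no filter, quantile normalization, a common median, naïve samples as reference, the methods' t-test criteria and leaving out each replicate. The members and lists were chosen with earlier results of these data known. Named genes were all members, at most 6 called genes of each list with the largest change, and the 8 genes most like the members. The cell marker lists did not follow this rule. There some called genes with larger changes, such as Cd79b and Cd3e, were left unnamed, and the choice was made after the values were seen. Other genes of the lists that are named without a call fall outside that rule and were also chosen after their values were seen. Figures were drawn with matplotlib 3.10.9 and permutations run with scipy 1.17.1.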

Additional observations from a re-analysis of the deposited data

Results flagged for a closer look

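In 14 of 110 sets of 5 values (10 probe sets in each of 11 groups) 1 sample stood apart from the other four by Dixon's criterion. Chance flags about 1 of 20 single sets. The probe sets were read on the same arrays and are not independent, so the count was not tested against that rate. In crushed samples at 1 day, sample 4 was the low one for H2-Aa 1435290_x_at (1594), H2-Ab1 1450648_s_at (1442), H2-Ab1 1425477_x_at (365) and Cd74 (4557). In contralateral samples at 3 months, sample 1 was the low one for H2-Aa 1435290_x_at (842) and 1452431_s_at (370.1) and for H2-Ab1 1425477_x_at (157). The other low ones were sample 4 of the crushed samples at 3 weeks for H2-Ab1 1450648_s_at (2844), sample 1 of the contralateral samples at 3 days for Cd74 (2425), sample 1 of the contralateral samples at 3 weeks for Ciita 1421210_at (12.2) and sample 2 of the naïve samples for H2-Aa 1435290_x_at (1714). The high ones were crushed sample 4 at 1 week for Ciita 1421211_a_at (281), crushed sample 3 at 3 weeks for Cd74 (6633) and contralateral sample 2 at 3 weeks for Cd74 (4513).

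The crush effect was called different between times in 15 tests in limma, given as log2 differences. From 3 days minus 1 day these were 1.07 for H2-Aa 1452431_s_at and 1.36 for H2-Eb1, and from 3 weeks minus 1 week -1.23 for Ciita 1421211_a_at. From 1 week minus 1 day they were 1.24 and 1.81 for H2-Aa 1435290_x_at and 1452431_s_at, 1.35, 1.00 and 1.38 for H2-Ab1 1425477_x_at, 1450648_s_at and 1451721_a_at, 1.79 for H2-Eb1 and 1.27 for Ciita 1421211_a_at. From 3 weeks minus 1 day they were 1.29 and 1.52 for the same H2-Aa probe sets, 1.03 and 1.06 for H2-Ab1 1425477_x_at and 1451721_a_at, and 1.66 for H2-Eb1.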

How the results depend on the processing

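Of the values of single probe sets under the alternatives, 642 kept their direction and side of the threshold, 45 lost the call, 3 gained it and 5 changed sign. The 5 were all of H2-Aa at 1 day, near 0 throughout: 1435290_x_at gave 0.03 and 0.073 without replicates 4 and 5 (-0.15 to 0.073 over the replicates left out), and 1452431_s_at gave -0.0029 under quantile normalization and -0.11 and -0.10 without replicates 1 and 2 (-0.11 to 0.11 over the replicates left out). The count of 6 member probe sets called at 3 days was 2 under quantile normalization, 2 with a common median, 0 with naïve samples as reference, 0 by the methods' t-test criteria and 2 to 8 when 1 replicate was left out. By those criteria the 8 at 1 week became 5 and the 6 at 3 weeks became 2. Leaving out 1 replicate gave 7 to 8 at 1 week and 6 at 3 weeks. The difference of 3 days minus 1 day, called in 2, was called in 1 with no filter, quantile normalization or a common median, and in 0 to 6 when 1 replicate was left out. For 1 week minus 3 days, called in 0, a floor of 50 gave 1. Leaving out 1 replicate gave 0 to 1 for 3 weeks minus 1 week, called in 1, and 3 to 6 for 3 weeks minus 1 day, called in 5. At 3 days quantile normalization moved the median of all probe sets to -0.06, beside 0.04, with 1046 called higher and 605 lower, and a common median to -0.09, with 1040 and 633, beside 1274 and 424. The cause of these changes was not tested.

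Without the replicate block the counts of member probe sets called were 0, 6, 8, 6 and 0 from 1 day to 3 months, and the block changed one count, that of 3 days minus 1 day, which was 1 without it. Contralateral against naïve samples, which share only a number, gave 0 with the replicate number as a block at each time. Probe sets such as those of Ciita, close to the intensity of 50, have the least signal, and Ciita at 3 months fell below the filter without replicate 2.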
